A study of Mus musculus with 16 samples.

Results

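The apolipoprotein L genes of the mouse form a family in a cluster on chromosome 15. The members described here were chosen by symbol, as the 10 Apol genes of that cluster named *Apol6*, *Apol7a*, *Apol7b*, *Apol7c*, *Apol7e*, *Apol8*, *Apol9a*, *Apol9b*, *Apol10a* and *Apol10b*, of 23356 genes in the table. Apolipoprotein L proteins are known as lipid-binding proteins that act at membranes inside cells, and the human founding member lyses trypanosomes. Many genes of the family are known to respond to interferons and other inflammatory signals. Of the mouse genes, *Apol9a* and *Apol9b* are known as interferon-stimulated genes, and *Apol7c* is known in dendritic cells, where its protein acts on phagosomes.

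RNA-seq was performed on dendritic cells (BMDCs), which are bone marrow cells differentiated with GM-CSF and IL-4, from C57BL/6 wild-type (WT), *Tmem173*-/-, *Irf1*-/- and *Irf3/7*-/- mice. *Tmem173* encodes STING, the receptor of cyclic dinucleotides, *Irf1* encodes a transcription factor of the interferon regulatory factor (IRF) family, and *Irf3/7*-/- cells lack both other IRFs that are best known for switching on type I interferon. Each genotype was left untreated (NT) or given the STING ligand c-di-GMP (CDG) for 18 h, at 25 μg/ml by the labels. The 16 samples, 2 in each of 8 conditions, were combined by the authors into a single value per condition, in FPKM (fragments scaled to transcript length and to all mapped fragments), with the bounds of an interval. The cells harvested were those that floated or adhered loosely, and whether the samples of a condition came from separate mice was not stated.

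The study asked how STING, IRF1 and IRF3/7 share out the response to c-di-GMP, and the comparisons below ask this of the Apol genes. Since there is a single value per condition, no spread between replicates and no p-value can be given, and the interval that follows a value in parentheses is the deposited one. A call of higher or lower required a difference of more than 2-fold on the log2(FPKM + 0.1) scale, deposited intervals that did not overlap, a status of OK, and a level of 1 FPKM in a compared condition. That scale understates the change of low genes. All knockouts were compared with the same WT values, so their differences from WT are not independent of each other.

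Between 10733 and 10970 genes reached 1 FPKM in a condition, and the number of reads behind a value cannot be read from FPKM. For the 4710 genes that reached 10 FPKM in all 8 conditions, the half-width of the interval had a median of 25.2% to 25.7% of the value. *Tmem173* was at 7.49 to 8.97 FPKM in *Tmem173*-/- BMDCs and 103 to 118 FPKM in WT. *Irf1* in *Irf1*-/- BMDCs was at 25.9 FPKM untreated and 116 FPKM with c-di-GMP, beside 149 and 245 FPKM in WT. Its RNA was thus lowered but not absent. In *Tmem173*-/- BMDCs *Irf1* was at 24.1 and 23.3 FPKM, so a low level does not by itself mark the *Irf1*-/- columns. In the columns labelled *Irf3/7*-/-, *Irf7* was at 1.07 and 4.97 FPKM, against 15.2 and 687 FPKM in WT. *Irf3* there was at 7.74 FPKM untreated but at 20.2 FPKM (14.8 to 25.7) with c-di-GMP, next to 15.8 FPKM (11.6 to 20.01) in treated WT, so its RNA does not mark the treated condition labelled *Irf3/7*-/- as a knockout of *Irf3*. Dendritic cell markers (*Itgax*, *H2-Ab1*, *Cd74* and 5 others) summed to between 4837 and 8706 FPKM in every condition, with 3336 to 4983 FPKM of this from *Cd74*. Markers of T cells and NK cells were also present in some of the cultures and are given beside the genes that they moved with.

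The 10 loci spanned 740 kb, chr15:77015487-77755229 as listed in the table. The listed positions coincide with GRCm38 genes (10 of 10 overlap the RefSeq gene of the same symbol, and 3 have identical ends), although the submitters' processing notes name mm9. By the GENCODE annotation 4 members lie on the + strand and 6 on the - strand. *Apol9a* (chr15:77403789-77411080, - strand, at most 3 exons) and *Apol9b* (chr15:77729072-77736382, + strand, at most 4 exons) are 318 kb apart, and *Apol7c* (chr15:77524867-77533315, - strand, at most 5 exons) and *Apol10b* (chr15:77584158-77596125, - strand, at most 4 exons) lie between them. Apart from *Apol6*, whose listed locus overlaps that of *Mb*, no member's locus overlapped another gene of the table.

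**Figure D1:**
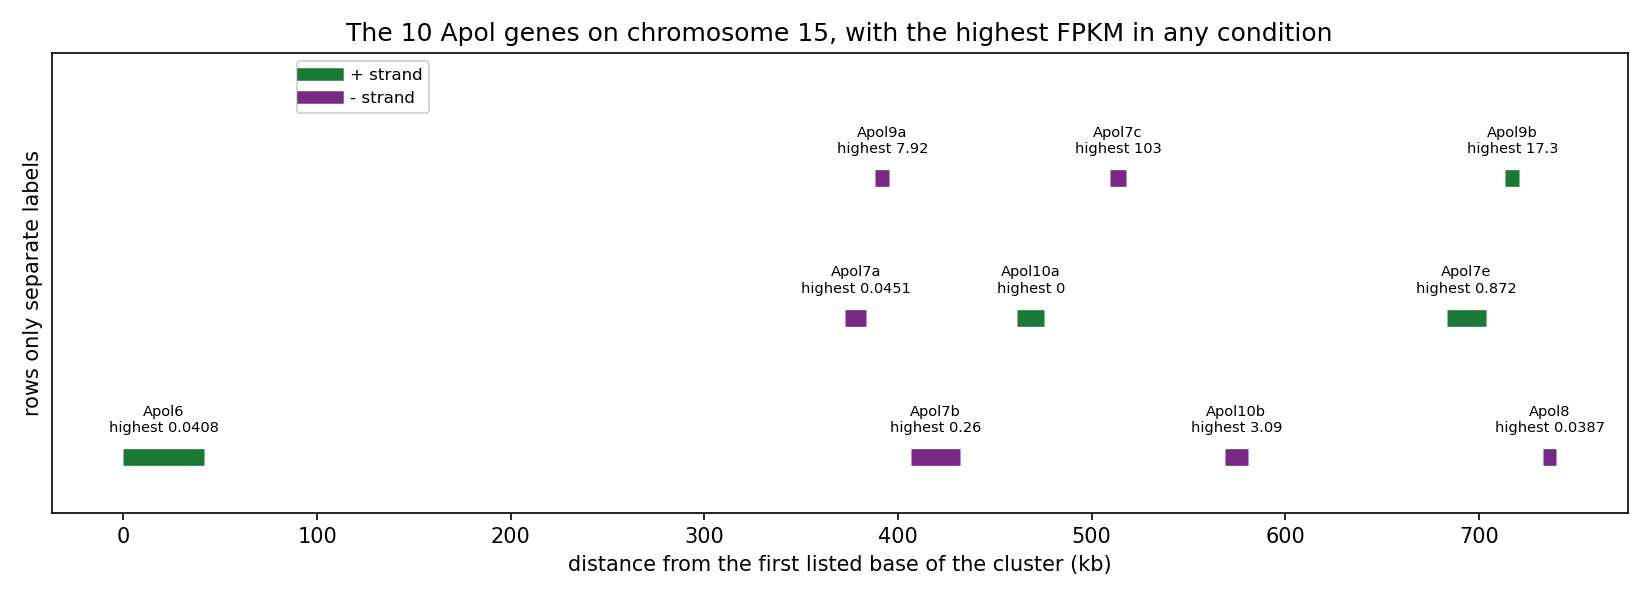
Listed loci of the 10 Apol genes, with the distance from the first listed base of the cluster on the x axis (kb), coloured by strand. The number under each name is the highest FPKM in any of the 8 conditions, and the vertical rows only separate the labels. *Apol7c* (103 FPKM), *Apol9b* (17.3), *Apol9a* (7.92) and *Apol10b* (3.09) lie among members that stayed below 1 FPKM.

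The promoters of the family are shown because they carry the interferon-stimulated response element (ISRE), the DNA motif that IRFs and the interferon-activated complex are known to bind. RefSeq start sites (GRCm38.p6) were at hand for 9 of the 10 members, without *Apol6*. Each window ran from 250 bases before the start site to 50 bases after it and was searched on both strands for the ISRE core, which is GAAA, any 2 bases and GAAA (TTTC, any 2 bases and TTTC on the other strand). Of the 9 members, 6 held at least 1 match. Of all 27025 genes with a window of this length 3.99% did, as did 9.84% of the 854 genes with a window that were called higher with c-di-GMP in WT. Counted over windows, 3.44% of 32851 held a match. The gamma-activated sequence TTCNNNGAA was found in 1 of the 9, *Apol10a*, and in 9.55% of all genes with a window. A match is a description of the letters and not a bound site.

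The stretches around the match are printed on the gene's strand, 5′ to 3′, with the matching bases in capitals. They show which of the printed members share the element. Whether a match goes with a response was not tested, and some of these members stayed below 1 FPKM in every condition. *Apol7b* has no match and is printed for comparison with *Apol7e*, which it otherwise resembles.
Apol9a (chr15:77411110-77411159): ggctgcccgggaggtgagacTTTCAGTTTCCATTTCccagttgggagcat
Apol9b (chr15:77729015-77729064): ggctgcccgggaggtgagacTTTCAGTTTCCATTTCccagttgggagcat
Apol7c (chr15:77533341-77533390): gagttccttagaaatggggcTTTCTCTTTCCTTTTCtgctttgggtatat
Apol7e (chr15:77698833-77698882): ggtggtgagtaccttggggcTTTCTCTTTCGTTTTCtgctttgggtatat
Apol7b (chr15:77447462-77447511): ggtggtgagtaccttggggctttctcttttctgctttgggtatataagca
Apol10a (chr15:77476976-77477025): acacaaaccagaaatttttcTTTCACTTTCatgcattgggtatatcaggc
Apol10b (chr15:77596106-77596149): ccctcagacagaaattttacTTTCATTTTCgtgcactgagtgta

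In *Apol9a*, *Apol9b*, *Apol7c* and *Apol7e*, 2 matches overlapped to form a run of 3 TTTC repeats. Counting the base before the start site as -1, the run began at -59 in *Apol9a*, -37 in *Apol9b*, -55 in *Apol7c* and -36 in *Apol7e*, with the RefSeq start site of lowest number where there were several. The printed stretches of *Apol9a* and *Apol9b* were identical, and their upstream sequences matched at 228 of 228 aligned bases, with 44 gap positions. The upstream sequences of *Apol7b* and *Apol7e* matched at 244 of 245 aligned bases, with 10 gap positions, and the run of repeats was complete only in *Apol7e* of this pair. The single match of *Apol10b* lay across the start site, from -4 to 6. No match was found in *Apol7a*, *Apol7b* or *Apol8*. The promoter of *Apol9a* is printed over all 250 upstream bases (chr15:77411081-77411330, - strand), since *Apol9a* and *Apol9b* were the members called higher with c-di-GMP in WT BMDCs.
Apol9a promoter: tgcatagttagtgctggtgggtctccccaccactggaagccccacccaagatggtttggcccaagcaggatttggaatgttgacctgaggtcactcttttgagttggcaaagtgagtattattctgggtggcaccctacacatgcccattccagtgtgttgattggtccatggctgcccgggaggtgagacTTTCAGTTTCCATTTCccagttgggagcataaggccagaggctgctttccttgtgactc

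Near-identical members can trade reads, and the libraries were sequenced as 35-base paired-end reads. Of the 35-base stretches in the GENCODE transcripts of *Apol9b*, 61.8% also occurred in *Apol9a*, whereas 19.3% of those of the longer *Apol9a* occurred in *Apol9b*. *Apol7b* shared 77.2% of its stretches with *Apol7e*, and *Apol7e* 77.9% with *Apol7b*. How the authors' counting divided such reads is unknown, so the split within each pair is uncertain. *Apol10b* (90.0% of stretches found in no other gene) and *Apol9a* (80.7%) had the highest unique shares of the members that reached 1 FPKM. The share of *Apol9a* is taken over all its transcripts, the longest of 4246 bases against 1573 in *Apol9b*. It therefore does not make the split from *Apol9b* certain. For *Apol7c* 65.2% were found nowhere else, and 22.5% occurred in *Gm8221*, a gene inside the cluster that RefSeq lists as a pseudogene.

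**Figure D2:**
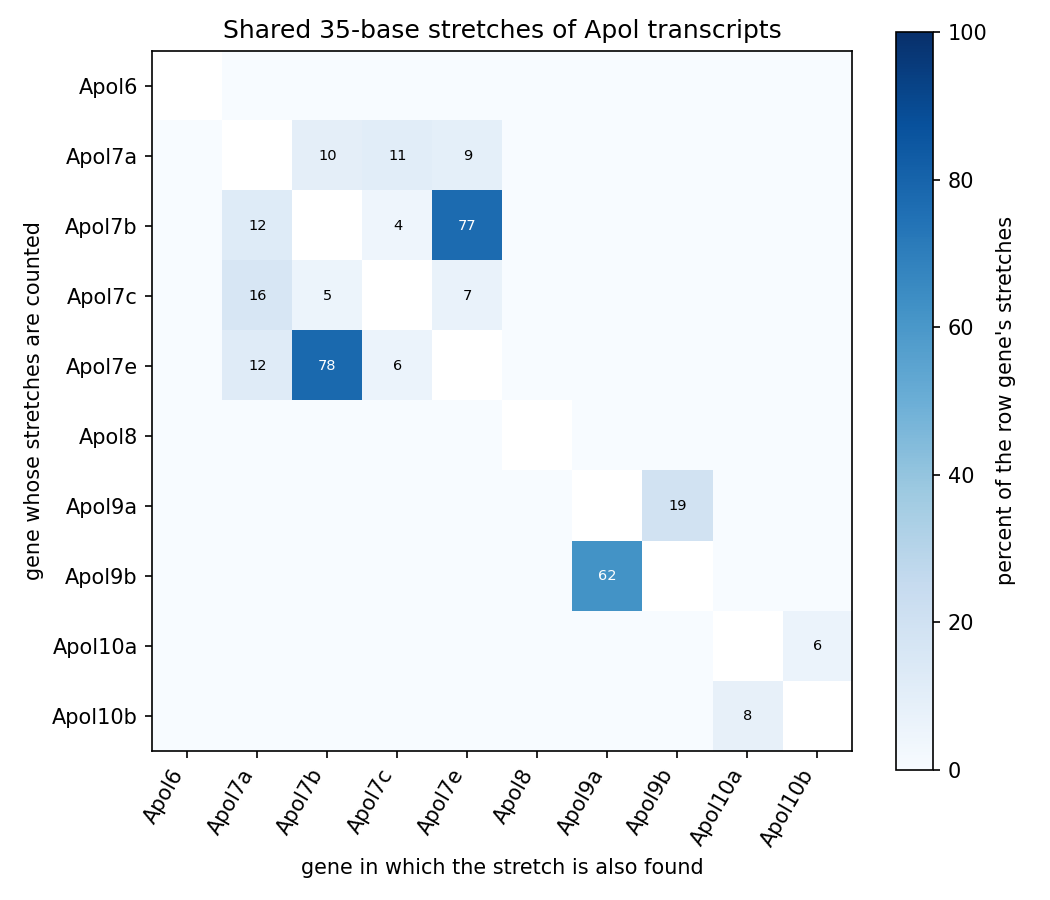
Percent of the 35-base stretches of each Apol gene (rows) that are also found in another member (columns), from GENCODE transcripts; shares of at least 1% are printed in the cells. The pair *Apol7b* and *Apol7e* (77.2% and 77.9%) and *Apol9b* in *Apol9a* (61.8%) stand out.

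*Apol9a* and *Apol9b* were the members called higher with c-di-GMP in WT BMDCs. *Apol9a* was at 0.105 FPKM (0.0224 to 0.208) in untreated and 7.92 FPKM (5.16 to 10.9) in treated WT BMDCs. *Apol9b* was at 0.242 FPKM (0.0911 to 0.387) untreated and 17.3 FPKM (11.8 to 23.3) treated. The intervals of treated and untreated cells did not overlap for either gene, and the log2 differences were 5.29 for *Apol9a* and 5.67 for *Apol9b*. These 2 were the members called higher, of 4 tested, beside 10.5% of all 11201 tested genes. Both passed the minimum of 1 FPKM only through treated WT BMDCs, so that no call in the other direction was possible for them. No member was called lower, beside 9.96% of all genes. The median log2 difference of all 10 members was 0.48 and that of all tested genes 0.00. With the copies added together, *Apol9a* and *Apol9b* were at 0.348 FPKM in untreated and 25.2 FPKM in treated WT BMDCs, a log2 difference of 5.82.

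In *Tmem173*-/- BMDCs neither gene rose. *Apol9a* was listed at 0 with and without c-di-GMP. *Apol9b* was at 0.0268 FPKM (0 to 0.0853) without it and was listed at 0 with it. None of the members was called higher within *Tmem173*-/- BMDCs, where a single member reached 1 FPKM and 0.046% of all tested genes were called higher. Both genes were called lower in treated *Tmem173*-/- than in treated WT BMDCs, and no fold is given against values listed at 0.

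In *Irf1*-/- BMDCs both genes still rose, to a lower level than in WT. *Apol9a* was listed at 0 untreated and was at 1.38 FPKM (0.716 to 2.07) with c-di-GMP. *Apol9b* was listed at 0 untreated and was at 3.33 FPKM (1.91 to 4.80) with c-di-GMP. Both were called higher, as was *Apol7c*, of 3 members tested, beside 9.67% of all tested genes. *Apol9a* and *Apol9b* passed 1 FPKM only with c-di-GMP, so they could not have been called lower. Against treated WT BMDCs the treated level was 17.4% for *Apol9a*, or 6.58% to 40.2% when the bounds are set against each other, and 19.2% for *Apol9b*, or 8.19% to 40.5%. The log2 differences were -2.44 and -2.34, and both genes were called lower.

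In the cells labelled *Irf3/7*-/- both genes were again low with c-di-GMP. *Apol9a* went from 0.0157 FPKM (0 to 0.0591) to 0.769 FPKM (0.300 to 1.26), which stayed below 1 FPKM and was therefore not tested. *Apol9b* was at 0.0268 FPKM (0 to 0.118) untreated and 3.39 FPKM (2.01 to 4.80) treated, a log2 difference of 4.78. It was the only member called higher, of 3 tested, beside 10.2% of all tested genes. It passed 1 FPKM only with c-di-GMP, so it could not have been called lower. Against treated WT BMDCs *Apol9a* reached 9.71% (2.76% to 24.5% from the bounds) and *Apol9b* 19.6% (8.64% to 40.5%). The log2 differences were -3.21 and -2.32, and both were called lower.

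The order of the levels was the same for both genes at its head and its foot. Treated WT was highest, with its interval above that of every other condition. Treated *Irf1*-/- and treated *Irf3/7*-/- followed, and their intervals overlapped for *Apol9a* and for *Apol9b*, so the order of these 2 genotypes was not resolved. The direct comparison, which was added after the values were seen, gave a log2 difference of 0.77 for *Apol9a* and -0.03 for *Apol9b* (*Irf1*-/- minus *Irf3/7*-/-), and called neither. Untreated WT came next, below the treated cells of both IRF knockouts with no overlap. The conditions after it did not differ beyond their intervals from their neighbours in the order. Set directly against untreated WT, untreated *Tmem173*-/- and *Irf1*-/- BMDCs were lower with intervals apart for both genes. *Apol9b* was at 0.0268 FPKM (0 to 0.0853) in the former, narrowly below the WT interval (0.0911 to 0.387). The other values were listed at 0, with an interval of 0 to 0 that lies apart from any positive lower bound. All these levels lay below 1 FPKM and were not tested, and the share of all genes with intervals apart at such levels is not given. The ratio of *Apol9b* to *Apol9a* was 2.30 in untreated WT, 2.19 in treated WT, 2.41 in treated *Irf1*-/- and 4.41 in treated *Irf3/7*-/- BMDCs.

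The lower treated level in both IRF knockouts set these genes beside a small share of the genes that c-di-GMP raised. The 1175 genes called higher in treated WT BMDCs had a median treated level of 75.4% of WT in *Irf1*-/- cells (quartiles 48.8% and 99.5%), 79.1% in *Irf3/7*-/- cells (57.2% and 104%) and 25.5% in *Tmem173*-/- cells. *Apol9a* was matched or undercut by 74 of them (6.30%) in *Irf1*-/- and 31 (2.64%) in *Irf3/7*-/- cells, and *Apol9b* by 80 (6.81%) and 51 (4.34%), counting the gene itself. Below 25% of WT, a limit set after the values were seen, were 114 genes in *Irf1*-/- cells and 71 in *Irf3/7*-/- cells. The 31 genes below it in both, among them *Apol9a* and *Apol9b*, were 27.2% of the former and 43.7% of the latter.

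A list of 25 interferon-induced genes put the Apol9 pair in the context of the wider response. All 25 were called higher with c-di-GMP in WT and in *Irf1*-/- BMDCs, 23 of them in *Irf3/7*-/- BMDCs, and none of 18 tested in *Tmem173*-/- BMDCs. Of all tested genes 10.5%, 9.67%, 10.2% and 0.046% were, in the same order. For the 25, the median treated level was 1.38% of WT in *Tmem173*-/- BMDCs. It was 75.5% in *Irf1*-/- (quartiles 38.8% and 81.3%) and 59.2% in *Irf3/7*-/- BMDCs (53.3% and 70.8%). Against treated WT, 9 of the 25 were called lower in *Irf1*-/- and 5 in *Irf3/7*-/- BMDCs, beside 4.91% and 2.69% of all tested genes. *Apol9a* and *Apol9b* were called lower in both knockouts. *Isg15*, the ubiquitin-like protein attached to other proteins after interferon, was at 2262 FPKM in treated WT, 2308 FPKM in treated *Irf1*-/- and 1339 FPKM in treated *Irf3/7*-/- BMDCs. *Rsad2*, which encodes the antiviral enzyme viperin, was at 1245, 362 and 518 FPKM in the same order and was called lower in both knockouts. Of 23 genes of the interferon and STING pathway itself, 7 were called higher with c-di-GMP in WT, beside 10.5% of all tested genes. Against treated WT, 2 were called lower in treated *Irf1*-/- BMDCs, which were *Irf1* itself and *Ifng*. In treated *Irf3/7*-/- BMDCs 1 was called lower, the deleted *Irf7*, and 2 were called higher. These were *Ifnb1*, the gene of interferon-β (22.6 FPKM, against 2.93 FPKM in treated WT), and *Ifng* (1155 against 299 FPKM).

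**Figure D3:**
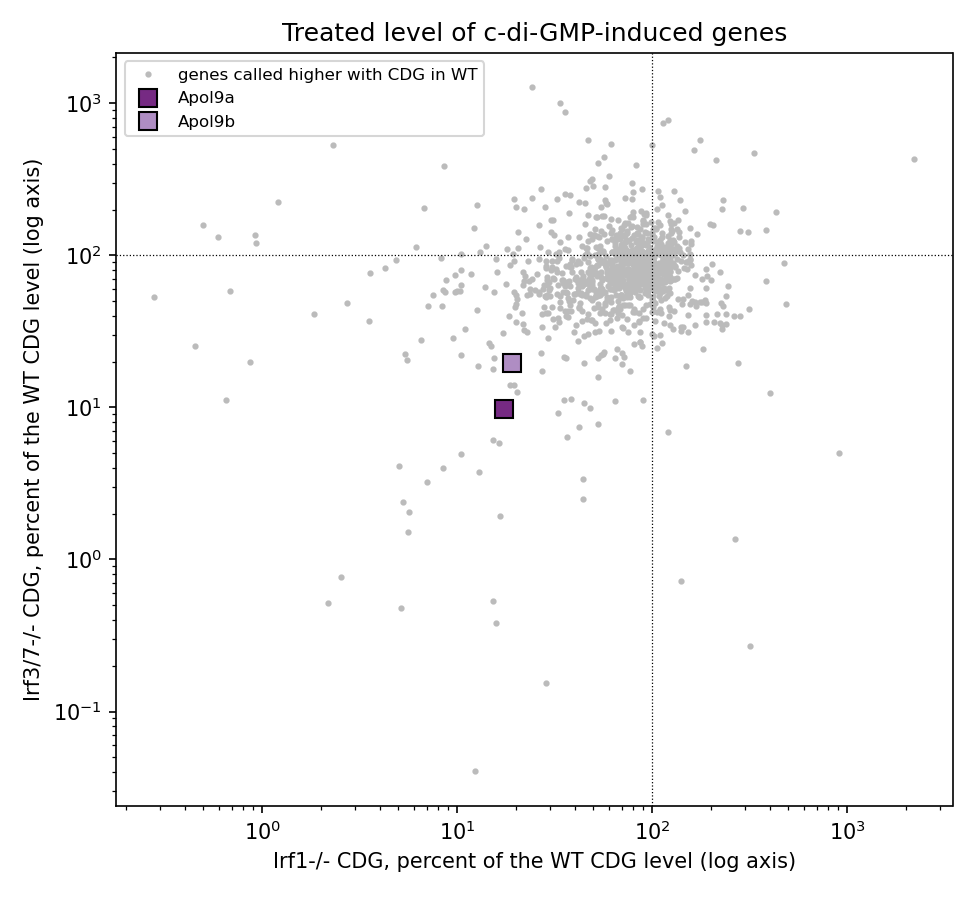
Level in treated *Irf1*-/- BMDCs (x axis) and treated *Irf3/7*-/- BMDCs (y axis) as a percent of treated WT, both on log axes, for the genes called higher with c-di-GMP in WT; 1174 of 1175 are drawn, since a single gene is listed at 0. *Apol9a* (17.4%, 9.71%) and *Apol9b* (19.2%, 19.6%) lie below and to the left of the main cloud.

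The share of the log2 rise kept in a knockout gave a different picture from the treated level. In *Irf3/7*-/- BMDCs *Apol9a* kept 55.0% and *Apol9b* 84.4% of the log2 rise seen in WT, beside a median of 84.2% over the 1175 genes. The untreated levels there, 0.0157 and 0.0268 FPKM, lay below the pseudocount of 0.1 FPKM, so these shares depend on it. Without a pseudocount, the ratio of treated to untreated *Apol9a* was 49.0 in *Irf3/7*-/- and 75.2 in WT. For *Apol9b* it was 126 and 71.4. These ratios are imprecise, since the untreated *Irf3/7*-/- intervals reach 0. In *Irf1*-/- BMDCs the shares were 73.5% and 90.0%, beside a median of 93.4%, but both genes were listed at 0 untreated, so that these shares depend on the pseudocount and cannot be read as a bound.

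*Apol7c* was the most abundant member in every condition. It was at 66.8 FPKM (50.5 to 83.1) in untreated and 103 FPKM (79.2 to 128) in treated WT BMDCs. It was at 8.47 FPKM (6.38 to 10.6) and 12.01 FPKM (9.14 to 14.9) in *Tmem173*-/-, and at 6.92 FPKM (5.17 to 8.68) and 17.4 FPKM (13.1 to 21.7) in *Irf1*-/- BMDCs. Levels were 58.8 FPKM (44.7 to 72.9) and 96.3 FPKM (73.0 to 120) in *Irf3/7*-/- BMDCs. The conditions fell into a high set of WT and *Irf3/7*-/- and a low set of *Tmem173*-/- and *Irf1*-/-, with no overlap of intervals between the sets, and within each set neighbours in the order overlapped.

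The genotype difference of *Apol7c* was present before treatment. In untreated cells it was at 12.7% of WT in *Tmem173*-/- (7.68% to 20.9% from the bounds) and 10.4% in *Irf1*-/- BMDCs (6.23% to 17.2%), log2 differences of -2.97 and -3.25. It was called lower in both. In untreated *Irf3/7*-/- BMDCs it was at 88.0% of WT, with a log2 difference of -0.18 and overlapping intervals. With c-di-GMP it was at 11.6% of WT in *Tmem173*-/- (log2 difference -3.09), 16.8% in *Irf1*-/- (-2.56) and 93.2% in *Irf3/7*-/- BMDCs (-0.10), and was called lower in the former pair.

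The change of *Apol7c* with c-di-GMP itself was small beside the difference between genotypes. The log2 differences were 0.63 in WT, 0.50 in *Tmem173*-/- and 0.71 in *Irf3/7*-/- BMDCs, none above 2-fold. The intervals overlapped in WT and in *Tmem173*-/-. In *Irf3/7*-/- they were narrowly apart, with a lower bound of 72.97 FPKM treated and an upper bound of 72.90 FPKM untreated. In *Irf1*-/- BMDCs the log2 difference was 1.32, with intervals apart, and the gene was called higher. The treated *Irf1*-/- level stayed below the untreated WT level with no overlap. Whether the rise differs between genotypes was not tested, as there is no spread between replicates.

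*Apol10b* had the same high and low conditions at a lower level. It was at 1.55 FPKM (1.02 to 2.06) in untreated and 3.09 FPKM (2.22 to 3.94) in treated WT BMDCs, intervals that did not overlap and a log2 difference of 0.95, just short of 2-fold. In *Tmem173*-/- BMDCs it was at 0.0777 and 0.0918 FPKM (0 to 0.180 in both), and in *Irf1*-/- BMDCs at 0.0209 FPKM (0 to 0.0601) and 0.0328 FPKM (0 to 0.0801). Levels in *Irf3/7*-/- BMDCs were 1.12 FPKM (0.701 to 1.52) untreated and 1.10 FPKM (0.721 to 1.48) treated. So WT was the genotype whose treated level stood above its untreated level, and *Irf3/7*-/- showed no such difference (log2 difference -0.03).

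Against WT, *Apol10b* was called lower in *Tmem173*-/- and *Irf1*-/- BMDCs with and without c-di-GMP. The log2 differences were -3.21 and -3.77 untreated and -4.05 and -4.58 treated. It was not called in untreated *Irf3/7*-/- BMDCs (-0.43, 72.4% of WT) and was called lower in treated ones (-1.42, 35.5% of WT, 18.3% to 66.7% from the bounds). The latter call was lost with a pseudocount of 1 FPKM, which gave -0.96. The bounds of *Apol10b* were whole multiples of 0.02002 FPKM within a tolerance of 0.02 of a step. The level in *Irf1*-/- BMDCs was 1.04 and 1.64 such steps, against 77.3 and 154 in WT, so its fold against these cells is imprecise.

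Over the comparisons with WT, the 4 members with at least 1 FPKM were tested in treated cells. All 4 were called lower in *Tmem173*-/- (13.5% of all tested genes were), all 4 in *Irf1*-/- (4.91%) and 3 in *Irf3/7*-/- BMDCs (2.69%). These tallies are not support for a direction, since several members reached 1 FPKM only in WT and had to come out lower if called: *Apol9a*, *Apol9b* and *Apol10b* against *Tmem173*-/-, *Apol10b* against *Irf1*-/- and *Apol9a* against *Irf3/7*-/- BMDCs. In untreated cells *Apol7c* and *Apol10b* alone were tested. Both were called lower in *Tmem173*-/- (5.95% of all tested genes) and in *Irf1*-/- (3.52%), and neither in *Irf3/7*-/- BMDCs (0.863%). The same holds for *Apol10b* in the former pair, where only WT reached 1 FPKM. The median log2 difference of all 10 members was -1.90 in treated and -0.85 in untreated *Tmem173*-/- BMDCs. It was -1.94 with and -0.91 without c-di-GMP in *Irf1*-/-, where the treated and untreated *Irf3/7*-/- cells had -0.17 and -0.09. The medians of all tested genes in these comparisons lay between -0.02 and 0.02. Between treated *Irf1*-/- and treated *Irf3/7*-/- BMDCs, *Apol7c* (-2.46) and *Apol10b* (-3.17) were called lower, of 4 tested, beside 6.62% of all tested genes. In this comparison *Apol10b* reached 1 FPKM only in *Irf3/7*-/- BMDCs, so it had to come out lower if called.

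**Figure D4:**
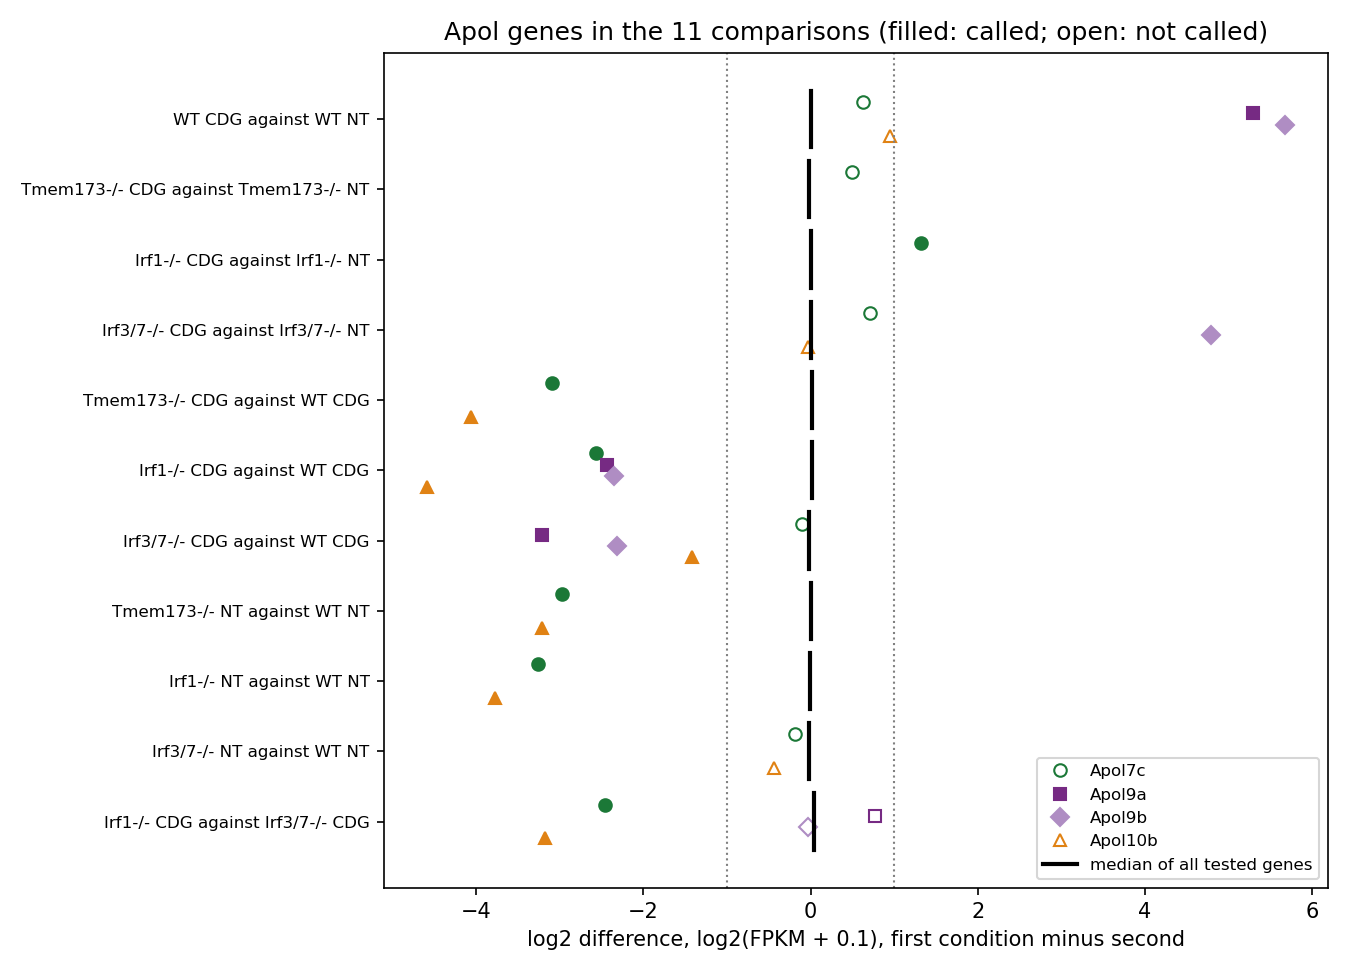
Difference on the log2(FPKM + 0.1) scale of the 4 members that reached 1 FPKM, first condition minus second, in the 11 comparisons; filled symbols were called, open ones were not, bars give the median of all tested genes and dotted lines 2-fold. Values against a condition listed at 0 are not drawn. *Apol9a* and *Apol9b* lie far to the right within WT (5.29 and 5.67), and *Apol7c* lies near 0 in both comparisons of *Irf3/7*-/- with WT (-0.18 and -0.10).

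Markers of other cells moved with the genotype difference of *Apol7c* and *Apol10b*. The 6 T cell markers summed to 67.2 FPKM in untreated and 48.5 FPKM in treated WT and to 92.6 and 166 FPKM in *Irf3/7*-/-, but to 1.32 and 1.28 FPKM in *Tmem173*-/- and 5.76 and 9.73 FPKM in *Irf1*-/- BMDCs. The 4 NK cell markers summed to 359 and 331 FPKM in WT, 333 and 907 FPKM in *Irf3/7*-/-, 0.0671 and 0.0704 FPKM in *Tmem173*-/- and 6.92 and 9.02 FPKM in *Irf1*-/- BMDCs, with most of the sum from *Gzma*. The high and low genotypes were the same as for *Apol7c*. In untreated cells 5 of 6 T cell markers and 3 of 4 NK cell markers were called lower in both *Tmem173*-/- and *Irf1*-/- BMDCs. Of all tested genes 5.95% and 3.52% were called lower there. *Gzma* was listed at 0 in *Tmem173*-/- cells, and *Ncr1* in untreated *Tmem173*-/- and in *Irf1*-/- cells. Of the T cell markers *Cd8a* was the highest, at 21.8 and 16.5 FPKM in WT and 33.2 and 60.8 FPKM in *Irf3/7*-/- BMDCs, untreated and treated. It was at 0.497 and 0.414 FPKM in *Tmem173*-/- and 1.70 and 1.40 FPKM in *Irf1*-/- BMDCs. *Cd4* stayed at or below 0.154 FPKM in every condition.

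*Ifng*, the interferon made by T and NK cells, was looked at after these values were seen. It was at 34.6 and 299 FPKM in WT and 44.0 and 1155 FPKM in *Irf3/7*-/- BMDCs, untreated and treated. It was listed at 0 in *Tmem173*-/- and was at 1.26 and 25.5 FPKM in *Irf1*-/- BMDCs. Neutrophil markers summed to 1142 and 908 FPKM in *Tmem173*-/- BMDCs, untreated and treated, and to 67.6 to 145 FPKM in the other genotypes. Most of the *Tmem173*-/- sum came from *Ngp* (743 and 620 FPKM) and *Camp* (339 and 241 FPKM). *Mpo* was instead highest in untreated *Irf1*-/- BMDCs (24.7 FPKM, against 19.1 FPKM in untreated *Tmem173*-/- and 3.70 FPKM in untreated WT). Macrophage markers summed to 369 and 358 FPKM in *Tmem173*-/- and 161 and 148 FPKM in WT BMDCs, untreated and treated. The sums were 161 and 128 FPKM in *Irf3/7*-/- and 81.8 and 85.2 FPKM in *Irf1*-/- BMDCs. *Csf1r* made up the largest part in *Tmem173*-/- BMDCs (194 and 204 FPKM). *Mertk* was called lower in treated *Tmem173*-/- than in treated WT BMDCs (3.74 against 16.9 FPKM). Of 7 macrophage markers, 5 were called lower in untreated and 3 in treated *Irf1*-/- than in WT BMDCs, beside 3.52% and 4.91% of all tested genes. Among these markers were *C1qa* (12.2 FPKM in WT and 1.17 FPKM in *Irf1*-/- untreated) and *C1qb* (52.4 and 8.60 FPKM). The class II genes *H2-Ab1* and *H2-Aa*, from the dendritic cell list, were also called lower in *Irf1*-/- BMDCs with and without c-di-GMP. Untreated, *H2-Ab1* was at 650 FPKM in WT and 278 FPKM in *Irf1*-/-, and *H2-Aa* at 1031 and 364 FPKM. In these bulk samples fewer cells of a type and less RNA per cell cannot be told apart, and the part of these cells in the Apol differences was not tested.

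The pair *Apol7e* and *Apol7b* stayed below 1 FPKM in every condition, gene by gene, and was not tested as single genes. *Apol7e* was at 0.445 FPKM (0.232 to 0.643) in untreated and 0.310 FPKM (0.143 to 0.482) in treated WT, and at 0.544 FPKM (0.304 to 0.786) and 0.872 FPKM (0.554 to 1.20) in *Irf3/7*-/- BMDCs. The gene was listed at 0 in *Irf1*-/- BMDCs and in untreated *Tmem173*-/- BMDCs, and was at 0.00634 FPKM (0 to 0.0536) in treated *Tmem173*-/- BMDCs. This is again a high set of WT and *Irf3/7*-/- with intervals above those of the low set, where a listed 0 has an interval of 0 to 0. In treated cells *Apol7e* was higher in *Irf3/7*-/- than in WT with intervals apart, the reverse of *Apol9a* and *Apol9b*.

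*Apol7b* was at 0.0723 FPKM (0 to 0.143) in untreated and 0.260 FPKM (0.125 to 0.411) in treated WT, and at 0.0838 FPKM (0.0179 to 0.161) and 0.214 FPKM (0.0893 to 0.339) in *Irf3/7*-/- BMDCs. In untreated *Tmem173*-/- BMDCs it was at 0.00869 FPKM (0 to 0.0357), and it was listed at 0 in treated *Tmem173*-/- and in both *Irf1*-/- conditions. Treated WT and treated *Irf3/7*-/- BMDCs thus stood above the low conditions, while the intervals of treated and untreated WT overlapped. With the shared stretches given above, the 2 genes cannot be told apart with confidence in these data. They were also summed with *Apol7a*, although 77.2% of the stretches of *Apol7a* were found in no other gene. The sum was at 1.10 FPKM in treated *Irf3/7*-/-, 0.611 FPKM in treated WT and 0 in *Irf1*-/- BMDCs. It was called lower in treated *Irf1*-/- than in treated *Irf3/7*-/- BMDCs, with no fold against 0. Only the latter reached 1 FPKM, so no call in the other direction was possible. The sum was not called in treated *Irf3/7*-/- against treated WT (log2 difference 0.75).

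The other members were at or near 0. *Apol6* was at 0.00917 to 0.0408 FPKM over the 8 conditions, *Apol7a* at 0 to 0.0451 FPKM and *Apol8* at 0 to 0.0387 FPKM. *Apol10a*, whose promoter holds both motifs, was listed at 0 in all 8. These values do not show whether the genes are silent, only that they were not detectable at this depth. Of the family genes outside the 10, *Apol11a* reached 0.0755 FPKM, *Apol11b* 0.101 FPKM, *Apol7d* 0.0536 FPKM and the more distant *Apold1* 0.112 FPKM at most.

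**Figure D5:**
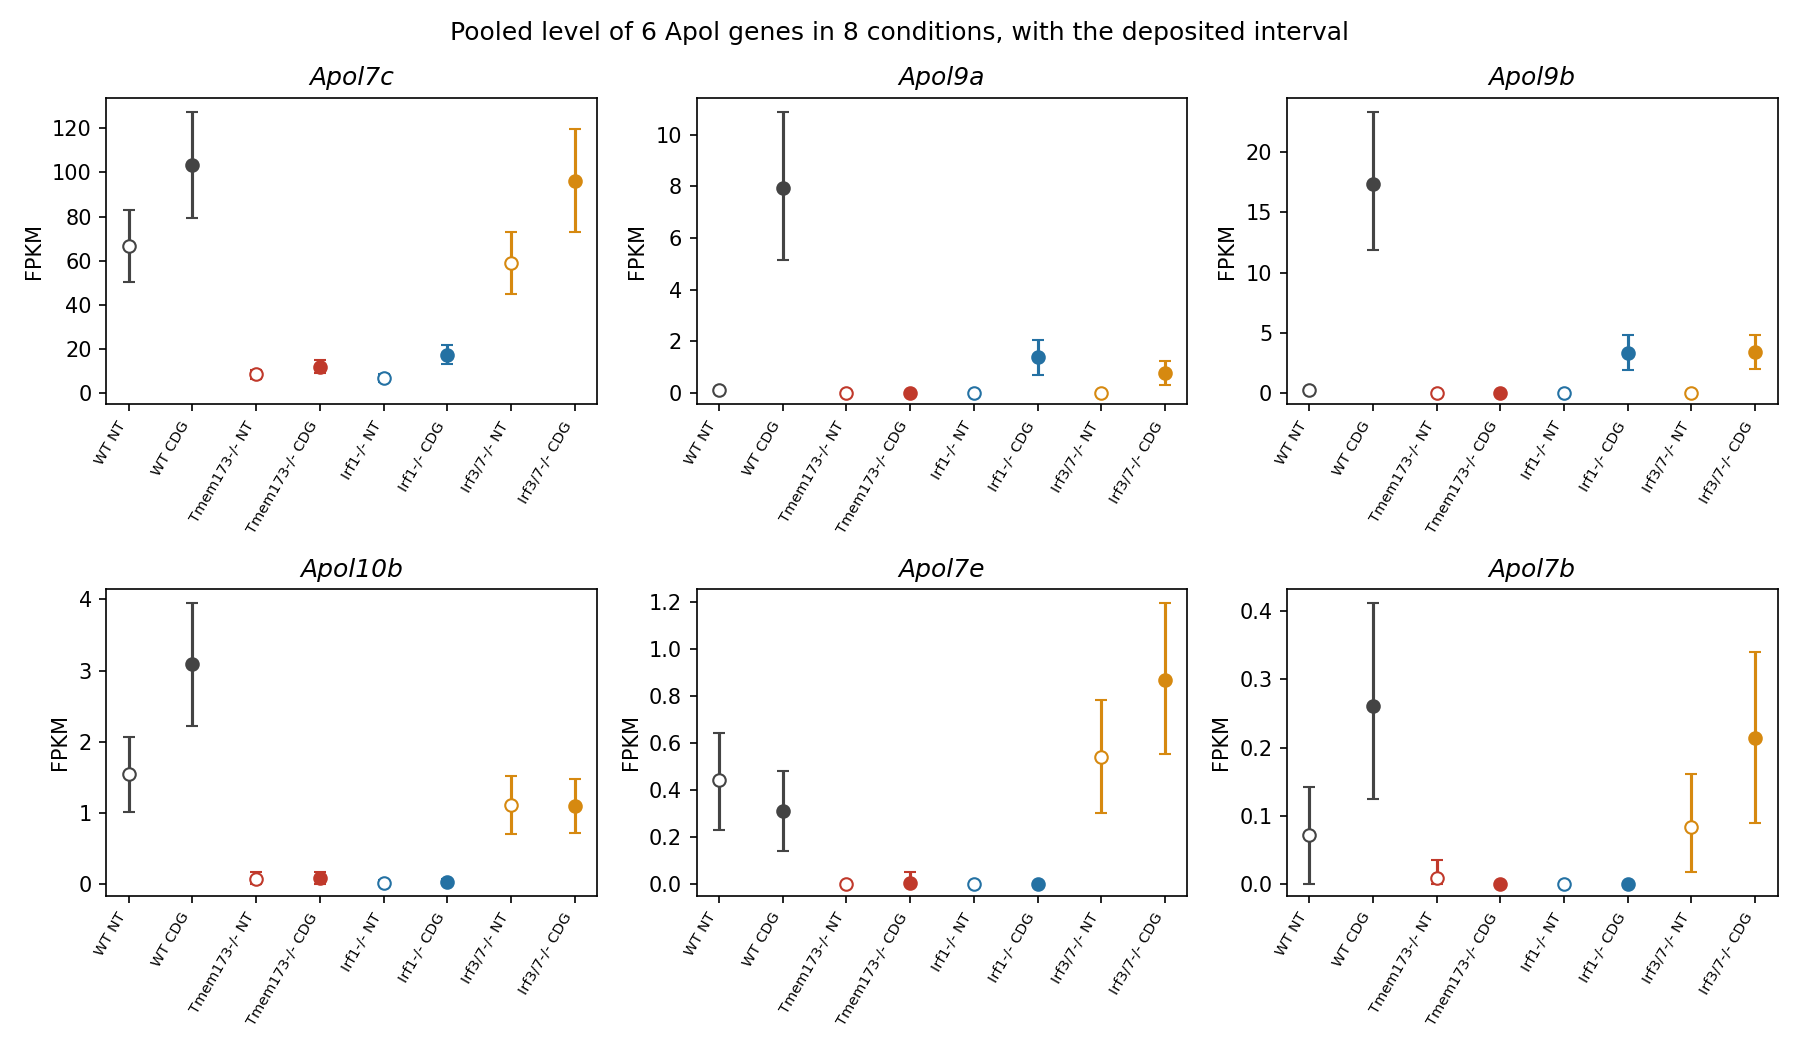
Level in FPKM (linear axes that differ between panels) of the 6 members that passed 0.2 FPKM in any condition, with the deposited interval as bars; open symbols are untreated, filled ones treated, and colours mark the genotype. *Apol9a* and *Apol9b* are highest in treated WT (7.92 and 17.3), whereas *Apol7c*, *Apol10b*, *Apol7e* and *Apol7b* are low in both *Tmem173*-/- and *Irf1*-/- and higher in WT and *Irf3/7*-/- BMDCs.

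The members thus showed a pair of patterns, which the correlation of log2 values over the 8 conditions describes. The points share libraries and c-di-GMP treatment, and no test was made. Pearson's r was 0.99 between *Apol9a* and *Apol9b* and 0.95 between *Apol7c* and *Apol10b*, and between 0.48 and 0.62 across these pairs. Among 11807 other genes, those most like *Apol7c* were *B3gnt5* (r = 0.99), *Gbp8* (0.99), a guanylate-binding protein gene of a family known to be induced by interferon-γ, and *Gm8221* (0.99). Those most like *Apol10b* were *Casp12* (0.97), *Scly* (0.97) and again *Gm8221* (0.97). Those most like *Apol9a* were *Cnot4*, *Myo10* and *Intu* (all 0.99), and those most like *Apol9b* were *Adap1* (0.999), *1500012F01Rik* and *Arl6ip1* (both 0.99).

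*Gm8221* lies between *Apol10b* and *Apol7e* (chr15:77618968-77627398) and had the pattern of *Apol7c* at a lower level. It was at 6.84 FPKM (5.16 to 8.52) in untreated and 11.9 FPKM (8.85 to 14.9) in treated WT, and at 6.44 FPKM (4.86 to 8.05) and 11.3 FPKM (8.48 to 14.1) in *Irf3/7*-/- BMDCs. Its level was 0.594 and 1.04 FPKM in *Tmem173*-/- and 0.449 and 0.774 FPKM in *Irf1*-/- BMDCs. It was called lower than WT in both, treated and untreated. Since it shares stretches with *Apol7c*, part of its reads may belong to either gene.

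The neighbours of the cluster were looked at in the same comparisons. Of 37 other genes within 500 kb of the cluster, *Gm8221* included, 28 reached 1 FPKM in a condition. In untreated cells 1 of 28 tested was called lower in *Tmem173*-/- and 1 in *Irf1*-/- BMDCs, and this was *Gm8221* in both, beside 5.95% and 3.52% of all tested genes; 1 was called higher in *Tmem173*-/- BMDCs. In treated cells 4 of 28 were called lower in *Tmem173*-/-, 3 of 26 in *Irf1*-/- and 1 of 26 in *Irf3/7*-/- BMDCs, beside 13.5%, 4.91% and 2.69% of all tested genes. In treated *Tmem173*-/- BMDCs 2 were called higher. In WT 1 of 28 was called higher with c-di-GMP and 2 lower.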

How the data were processed

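RNA-seq was analysed in BMDCs of 4 genotypes, with and without c-di-GMP. According to the paper's methods, stranded mRNA libraries were sequenced as paired-end reads and analysed with Cuffdiff in DNAnexus. The submitters' processing notes name Cuffdiff 1.06 and mm9, while the listed loci lie at GRCm38 positions. The sources used here give no aligner or annotation, and an opposing-strand setting for SeqMonk but none for the Cuffdiff run. The authors deposited FPKM values with the lower and upper bound and a status, 1 set per condition with replicates combined. The 3 measurement columns of another knockout were not used. The columns named TM173 were read as *Tmem173*-/- and, among them, GDP as c-di-GMP. The dose is 25 μg/ml by the labels, and the paper's legends give another.

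From these, log2(FPKM + 0.1) was compared in 11 comparisons of conditions, of which 1 was added after the values were seen. The call needed over 2-fold, intervals apart, at least 1 FPKM in a condition and status OK in both. No p-value was computed. The depth per sample is unknown, and precision rests on the deposited intervals, which cannot be checked against replicates here. Members and gene lists were chosen with earlier results of these data known. The genes named are all members, other family genes, the targeted genes, the 3 genes most like each member that reached 1 FPKM, and at most 4 per list. *Ifng* and the full set of *Gm8221* values were added after the values were seen. Promoters were taken from RefSeq (GRCm38.p6), and transcripts from GENCODE for the count of shared stretches of 35 bases. Protein sequences were not used here. Alternatives were other pseudocounts, filters, fold thresholds, median centring, intervals unused or widened, and summed copies. Tools were python 3.11.15, pandas 2.3.3, numpy 2.4.6 and matplotlib 3.10.9.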

Additional observations from a re-analysis of the deposited data

How the results depend on the processing

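Of 134 counts of called members and shares of induction computed under other settings, 116 kept to within 1.5 times the value given or inside the range its bounds allow, and no difference of a single gene changed sign where it was called. Of 283 differences of single genes, 278 kept their call. *Apol10b* in WT became called at 1.5-fold, as did *Apol7c* within *Irf3/7*-/- BMDCs. *Apol10b* in treated *Irf3/7*-/- against treated WT BMDCs lost its call with a pseudocount of 1 FPKM and at 4-fold, and *Apol7c* within *Irf1*-/- BMDCs at 4-fold.

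Summing *Apol9a* with *Apol9b*, and *Apol7a* with *Apol7b* and *Apol7e*, left 1 called unit in WT in place of 2 genes. With no minimum FPKM, 2 members were called higher within *Irf3/7*-/- BMDCs. Called lower against WT were 5 in untreated *Tmem173*-/- and 5 in untreated *Irf1*-/- BMDCs, and 4 were lower in treated *Irf1*-/- than in treated *Irf3/7*-/-. A minimum of 5 FPKM left 1 within *Irf1*-/-, 0 within *Irf3/7*-/-, and 1 each in the last 3 comparisons, since fewer members were tested. At 1.5-fold 2 were called within *Irf3/7*-/-. The share of all genes called under each of these settings is not given. The counts therefore only describe how the calls of the members depend on the setting. The share of the rise kept in *Irf1*-/- BMDCs was 41.5% for *Apol9a* and 54.5% for *Apol9b* with a pseudocount of 1 FPKM, and 117% and 137% with 0.01 FPKM. In *Tmem173*-/- BMDCs, where values are at or near 0, the share was -0.49% for *Apol9a* with median centring, -5.88% with copies summed, and -30.8% for *Apol9b* with 0.01 FPKM.

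No paired analysis was possible because the table holds 1 combined value per condition, and for the same reason no replicate was left out. The split of reads within the *Apol9* and *Apol7* pairs and all levels below 1 FPKM are the least certain values.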

Other observations

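Apolipoproteins of other families, most of which are secreted and none of which belongs to the Apol genes, were set beside them. Of 19 on the list 18 were in the table and 5 were tested in WT. There 2 were called higher with c-di-GMP and 1 lower, beside 10.5% and 9.96% of all tested genes. *Clu*, which encodes the chaperone clusterin, went from 7.94 to 54.6 FPKM in WT and from 13.7 to 130.0 FPKM in *Irf1*-/- BMDCs, and *Apoc2*, the activator of lipoprotein lipase, from 5.13 to 29.6 FPKM and from 1.76 to 30.0 FPKM. In treated *Irf1*-/- against treated WT BMDCs 2 of 6 tested were called higher and 0 lower. In treated *Irf3/7*-/- BMDCs 1 of 5 was called higher and 1 lower. Of all tested genes 4.91% and 2.69% were called lower in these comparisons, and the shares called higher are not given. The mitochondrial *Apoo* was at 20.5 FPKM in untreated and 8.46 FPKM in treated WT BMDCs.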
